A study of Mus musculus with 6 samples.

Results

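The genes described here encode the adaptor complex of integrin-linked kinase: Ilk itself, the PINCH genes Lims1 and Lims2, the parvin genes Parva and Parvb, the PINCH-binding Ras suppressor gene Rsu1, and the kindlin genes Fermt1 and Fermt2. They were found as all probe sets of the array that the platform annotation gives to exactly 1 of these 8 genes. That gave 16 probe sets for 7 of the 8 genes, out of 18193 genes with such a probe set; no probe set was listed for Fermt1. The cells were C2C12, an established mouse line of skeletal muscle precursors (myoblasts), carrying a tetracycline-inducible integrin alpha7 construct, so both groups carried the construct. One group of 3 samples received no tetracycline and the other group of 3 received 1 µg/ml tetracycline, both for 36 h in growth medium with 20% serum and 0.5% chick embryo extract, and all were undifferentiated. The labels name no empty-vector line given tetracycline, do not say whether the line is 1 clone, and do not name the species of the construct. The study asked how more integrin alpha7 affects transcription in myoblasts.

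Integrins join the matrix outside a cell to actin inside it, and they need adaptors because their own tails have no enzyme activity. ILK, PINCH and parvin form a stable ternary complex: PINCH binds the ankyrin repeats of ILK, parvin binds its kinase-like domain and reaches actin, and RSU1 binds PINCH. Kindlins bind the tails of beta subunits, help talin to activate integrins and recruit ILK. In skeletal muscle the complex lies at costameres and myotendinous junctions, where alpha7 beta1 integrin holds laminin.

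RNA from each sample was hybridised to 1 Affymetrix array, and each value is a scaled linear signal per probe set. The group given tetracycline is called the arrays labelled induced, because the single Itga7 probe set was not higher there. It gave 811, 778 and 786 on noninduced arrays 1 to 3 and 675, 727 and 676 on the arrays labelled induced, and the groups did not overlap (log2 fold change -0.19, SE 0.058, limma adjusted p = 0.181). That probe set may not see the construct, so every direction below rests on the labels. The median signal was 25.0 to 27.7 on noninduced arrays and 22.9 to 24.9 on those labelled induced. Spiked bioB transcript, in contrast, was brighter on those labelled induced, at 167.1 to 169 against 118 to 129.6. On the same arrays the Gapdh 3′ to 5′ ratio was lower, at 0.761 to 0.782 against 0.788 to 0.802. That of Actb was higher, at 1.117 to 1.143 against 1.0999 to 1.108. The part of these differences in the results was not tested. Of 8 myoblast markers 7 passed the signal filter, Pax7 being the exception. The summed signal of the 8 was 7024 to 7084 on noninduced arrays and 6553 to 6814 on those labelled induced. That list includes Itga7 itself, and its brightest gene was Chrna1, with a mean of 2310. Of the lists of other cell types, 3 of 8 markers of differentiated muscle passed, 1 of 4 of adipocytes, 1 of 5 of endothelium, 2 of 5 of blood cells and 2 of 5 of epithelium, the brightest of these outside muscle being Csf1r with a mean of 70.9. In bulk RNA, fewer cells of a type and less RNA per cell cannot be told apart.

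Of the 16 probe sets of the complex, 15 passed the filter on dim signals and were tested, and none passed an adjusted p of 0.05 in limma. The lowest adjusted p was 0.113. At an unadjusted p under 0.05 there were 5 of 15 (4 with a higher and 1 with a lower signal after tetracycline), of which 3 belong to Lims1. All 5 had a mean signal over 100, a range in which 18.9% of tested probe sets had such a p in limma. An unmoderated comparison of the 15 gave 0 past the adjusted threshold and 4 at an unadjusted p under 0.05. Among all 22518 tested probe sets, 0.2% passed the adjusted threshold and 14.7% had an unadjusted p under 0.05, 7.43% in the upward and 7.26% in the downward direction. This balance depended on scaling: with arrays centred on their medians, 3739 probe sets were in the upward and 468 in the downward direction, and the members had 6 and 0. The groups did not overlap in 6 of the 15, in 4 genes: in the arrays labelled induced, 5 probe sets lay higher and 1 lower. Over all tested probe sets this share was 20.3%, made of 9.65% higher and 10.6% lower. All 6 were among the 10 member probe sets with a mean signal over 100, a range in which 24.4% of tested probe sets did not overlap. The members' median log2 fold change was 0.091, against -0.010 over all tested probe sets. Lims1 alone gives 5 of the 15. With 1 probe set per gene the median over 7 genes was 0.091, which is the value of the dim Lims2 probe set, and it ran from -0.10 (without noninduced replicate 2) to 0.15 (without noninduced replicate 3), being negative without induced replicate 2 as well (-0.097).

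**Figure D1:**
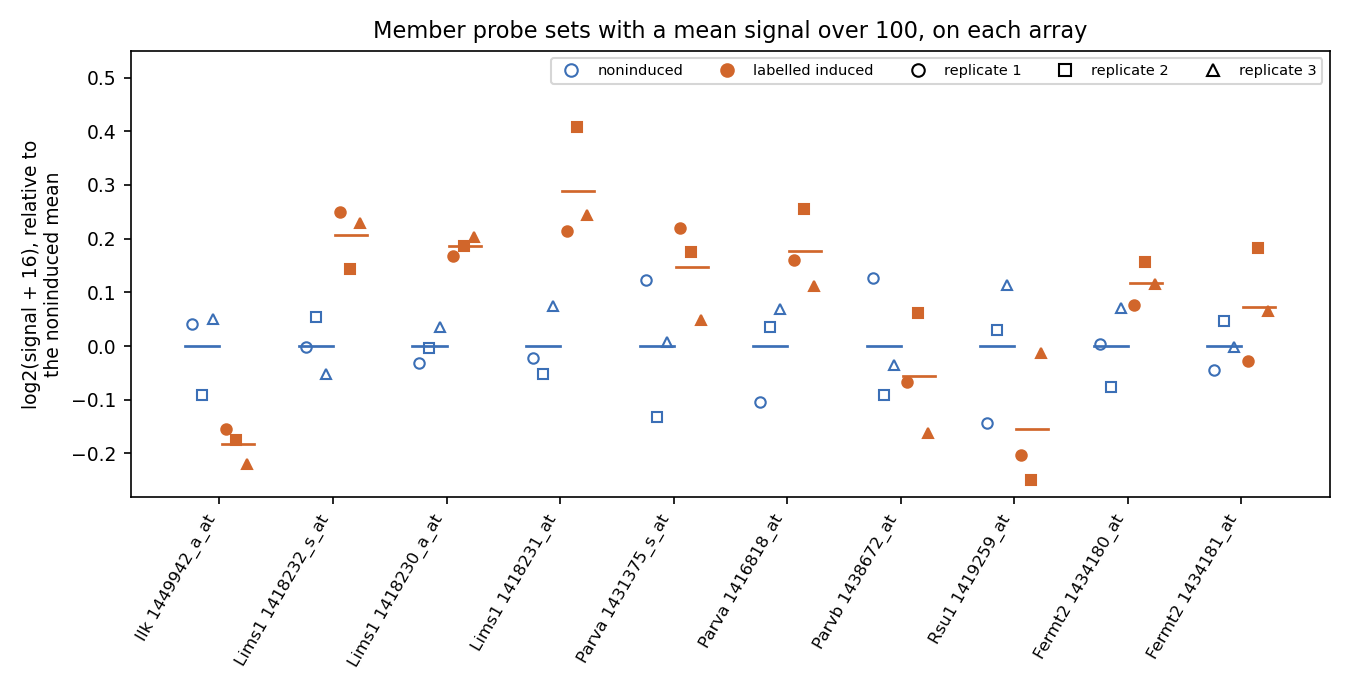
Each point is 1 array: log2(signal + 16) minus the mean of the 3 noninduced arrays, for the 10 member probe sets with a mean signal over 100; lines are group means, open symbols noninduced arrays and filled symbols arrays labelled induced. Ilk lies below the noninduced arrays on all 3 arrays labelled induced, and 3 Lims1 probe sets, 1 of Parva and 1 of Fermt2 lie above them.

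Ilk, the pseudokinase scaffold at the centre of the complex, was the one member whose groups separated downwards. Its probe set 1449942_a_at gave 1168, 1065 and 1176 on noninduced arrays 1 to 3, and 1018, 1004 and 973 on the arrays labelled induced. Every array labelled induced lay below every noninduced array, with noninduced replicate 2 the nearest to them. The means were 1136 ± 61.7 and 998 ± 23.5 (SD, n = 3 each), a level 11.9% lower with a log2 fold change of -0.18 (SE 0.057, 95% interval -0.31 to -0.059, limma adjusted p = 0.184). Ilk has this single probe set, so no second one on the array measures it. A change of at least this size was seen in 19.5% of tested probe sets with a mean signal over 100. Centring each array on its median brought Ilk to -0.090, with a 95% interval from -0.25 to 0.069 that includes no change (limma adjusted p = 0.563). Quantile normalization gave -0.20, with a 95% interval from -0.32 to -0.081 (limma adjusted p = 0.142).

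Lims1 encodes PINCH1, the LIM-domain partner of ILK, and its 3 bright probe sets all lay higher on the arrays labelled induced. Probe set 1418231_at gave 524, 513 and 562 on noninduced arrays and 620.3, 712 and 634 on those labelled induced. The groups were well apart, and induced replicate 2 was the highest. The mean was 22.2% higher, 0.29 on the log2 scale (95% interval 0.13 to 0.44, SE 0.071, limma adjusted p = 0.113), and 300 of the tested probe sets had a lower p. Probe set 1418232_s_at gave 883, 918 and 852 and then 1054, 978 and 1039, without overlap. Its log2 fold change was 0.21 (SE 0.057, limma adjusted p = 0.143). Probe set 1418230_a_at gave 763, 778 and 799.7 and then 879, 890.3 and 900.5, again without overlap and with the least spread of the 3. Its log2 fold change was 0.19 (SE 0.054, limma adjusted p = 0.157).

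These 3 probe sets were designed on the same gene and are not replicates of one another. An _s_at probe set can share probes with transcripts of other genes, and an _a_at probe set with several transcripts of its gene. Their distances within an array were compared too. The difference between 1418232_s_at and 1418230_a_at changed by 0.021 on the log2 scale, with a pooled SD of 0.070 between arrays (exact two-sided permutation p = 0.7). The difference between 1418230_a_at and 1418231_at changed by -0.10 without overlap, with a pooled SD of 0.079 (exact permutation p = 0.1, the smallest that 3 against 3 arrays allow). That between 1418232_s_at and 1418231_at changed by -0.081 with overlap (pooled SD 0.141, exact permutation p = 0.6). The 2 dim Lims1 probe sets left the direction undetermined. Probe set 1441411_at gave signals of 28.8 to 39.8 and 32.8 to 41.0, a log2 fold change of 0.045 (95% interval -0.34 to 0.43), and 1443947_at gave 26.4 to 34.3 and 20.1 to 31.0, a log2 fold change of -0.19 (-0.63 to 0.26). Both intervals hold 0 and also hold the change of the brightest Lims1 probe set. Within an array, 1418232_s_at, 1418230_a_at and 1418231_at lay further above 1443947_at by 0.40, 0.37 and 0.48, each without overlap. Each difference had an exact permutation p = 0.1 (adjusted p = 0.317). All 3 share the dim 1443947_at, and array scaling need not cancel between a dim and a bright signal. Whether the Lims1 probe sets disagree cannot be told from them.

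The call for Lims1 depended on how arrays were scaled. Centring each array on its median raised the median change of all tested probe sets from -0.010 to 0.083. In that setting 1418231_at was at 0.38 (limma adjusted p = 0.0492) and 1418232_s_at at 0.30 (limma adjusted p = 0.0469), both past the threshold, while 1418230_a_at was at 0.28 (limma adjusted p = 0.0641). The adjusted p of 1418231_at ran from 0.0492 to 0.608 over all alternatives, and that of 1418232_s_at from 0.0469 to 0.462. Without any 1 array the 3 log2 fold changes stayed between 0.17 and 0.33, and no setting turned the sign of these 3 or of Ilk.

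**Figure D2:**
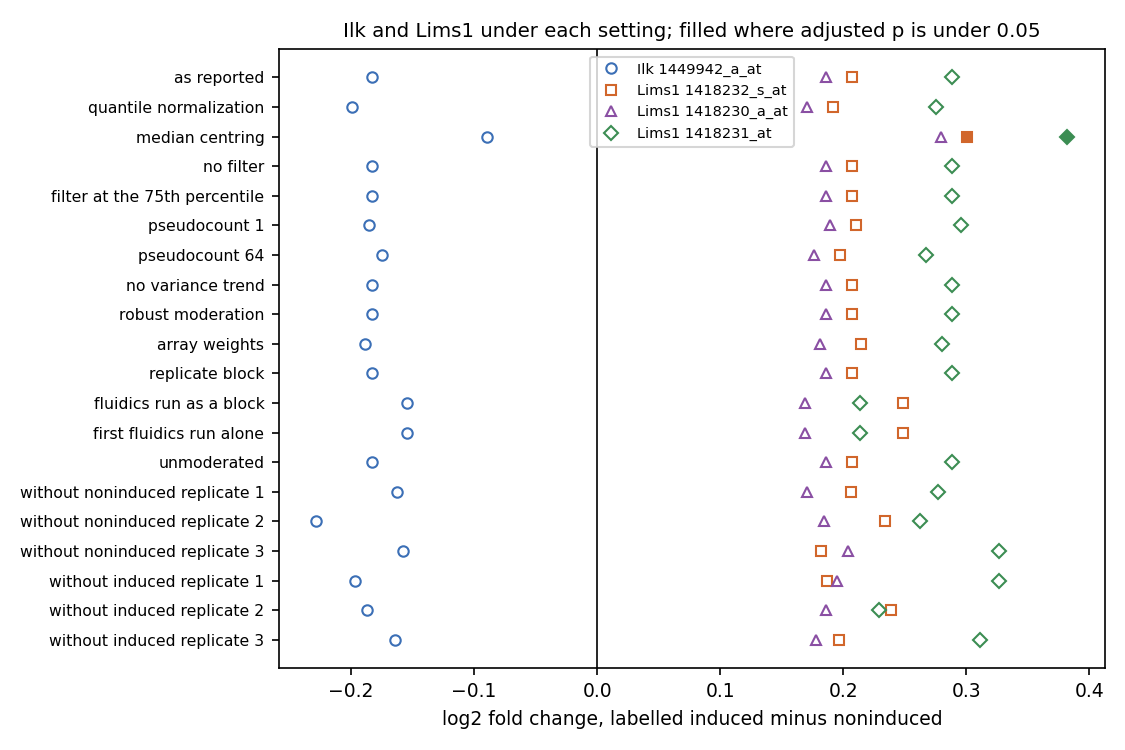
Log2 fold change (x axis) of Ilk and of the 3 bright Lims1 probe sets under the reported setting and each alternative (y axis), with a filled symbol where limma's adjusted p is under 0.05 (under "unmoderated", the p of the plain fit). Ilk stays between -0.23 and -0.090 and the Lims1 probe sets between 0.17 and 0.38, and the 2 filled symbols are both under median centring.

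Lims2 encodes PINCH2, the other PINCH protein, and lay close to the filter. Its probe set 1424408_at gave 21.0, 15.5 and 49.9 on noninduced arrays and 26.6, 42.8 and 21.1 on those labelled induced. The groups overlapped fully, and 1 array of each group stood well above its other 2. The log2 fold change was 0.091, with a 95% interval from -0.53 to 0.71 (limma adjusted p = 0.916).

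Because array scaling nearly cancels in a within-array difference between 2 bright signals, Lims1 was also set against Ilk on each array. The log2 difference between 1418232_s_at and the Ilk probe set, expressed relative to its noninduced mean, was -0.042, 0.14 and -0.10 on noninduced arrays 1 to 3. It was 0.40, 0.32 and 0.45 on the arrays labelled induced, all above the noninduced arrays. The change of 0.39 exceeded the pooled SD of 0.102 (exact two-sided permutation p = 0.1, the smallest possible; adjusted p = 0.317 over 19 such differences). It was 0.40 for induced replicate 1 against its own run, and 0.34 to 0.46 when any 1 array was left out. With 3 against 3 arrays this test cannot pass a threshold of 0.05, and the difference does not tell which of the 2 signals moved. Lims1 and Ilk had each separated in opposite directions on their own, so the separation of their difference was fixed in advance. It adds no further evidence.

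**Figure D3:**
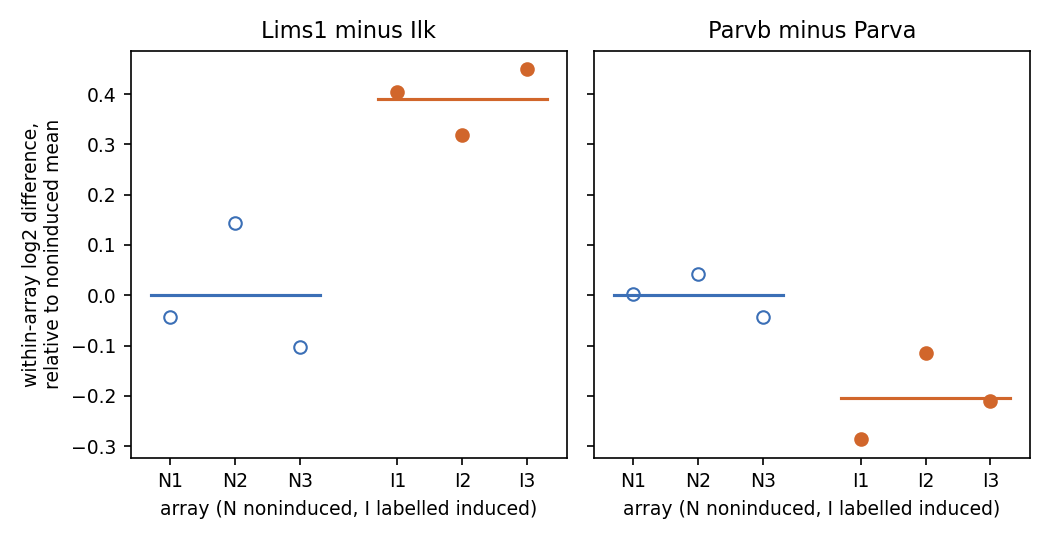
Within-array log2 differences on each array, relative to the mean of the noninduced arrays (lines are group means; N, noninduced; I, labelled induced). Lims1 minus Ilk is higher by 0.39 and Parvb minus Parva lower by 0.20 on the arrays labelled induced, and in neither panel do the groups overlap. For Lims1 minus Ilk this follows from the separation of each signal in opposite directions.

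The parvins join ILK to actin, and none of their probe sets passed the adjusted threshold. Parva, alpha-parvin, gave 259, 287 and 294 with probe set 1416818_at on noninduced arrays and 315, 337 and 304 on those labelled induced. The groups did not overlap, by a margin smaller than the spread within either group (log2 fold change 0.18, SE 0.080, limma adjusted p = 0.337). Its brighter probe set 1431375_s_at gave 641, 534 and 590.03 and then 685, 665 and 607, and here induced replicate 3 lay among the noninduced arrays (0.15, SE 0.077, limma adjusted p = 0.401; 0.082 without noninduced replicate 2). Parvb, beta-parvin, gave 492, 421 and 438 with probe set 1438672_at and then 429, 469.95 and 400.1, with overlapping groups (-0.056, SE 0.082, limma adjusted p = 0.797; 0.037 after median centring). Its dim probe set 1422060_at gave 46.7, 45.0 and 63.9 and then 56.3, 56.5 and 58.3 (0.12, limma adjusted p = 0.772). Within an array, Parvb minus Parva (the brightest probe set of each) was lower by 0.20 on the arrays labelled induced, with a pooled SD of 0.068 and no overlap (exact permutation p = 0.1, adjusted p = 0.317). For induced replicate 1 alone it was -0.29.

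Rsu1, which binds the last LIM domain of PINCH1, gave 1395, 1574 and 1669 with probe set 1419259_at on noninduced arrays. On the arrays labelled induced it gave 1337, 1295 and 1528. Induced replicates 1 and 2 lay below all noninduced arrays and replicate 3 did not, so the groups overlapped (log2 fold change -0.15, SE 0.076, 95% interval -0.32 to 0.011, limma adjusted p = 0.376). After median centring it was -0.062, and without noninduced replicate 3 it was -0.098. The other Rsu1 probe set, 1457220_at, was the one member under the filter, with signals of 4.31 to 15.3 and 1.24 to 7.21, and was not tested.

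Fermt2 encodes kindlin-2, the broadly expressed kindlin. Its brightest probe set, 1434180_at, gave 1058, 999 and 1108 on noninduced arrays and 1113, 1177 and 1144 on those labelled induced. The groups did not overlap, but noninduced replicate 3 and induced replicate 1 were nearly equal (log2 fold change 0.12, SE 0.056, 95% interval -0.0063 to 0.24, limma adjusted p = 0.367). Probe set 1434181_at gave 429, 458 and 442 and then 434, 505 and 464, with overlap (0.073, SE 0.072, limma adjusted p = 0.686). The dim probe set 1459324_at gave 27.6 to 41.5 and 12.7 to 38.0, with the lowest value on induced replicate 3 (-0.30, 95% interval -0.83 to 0.24, limma adjusted p = 0.620). Fermt1, the kindlin of epithelia, was not analysed here.

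**Figure D4:**
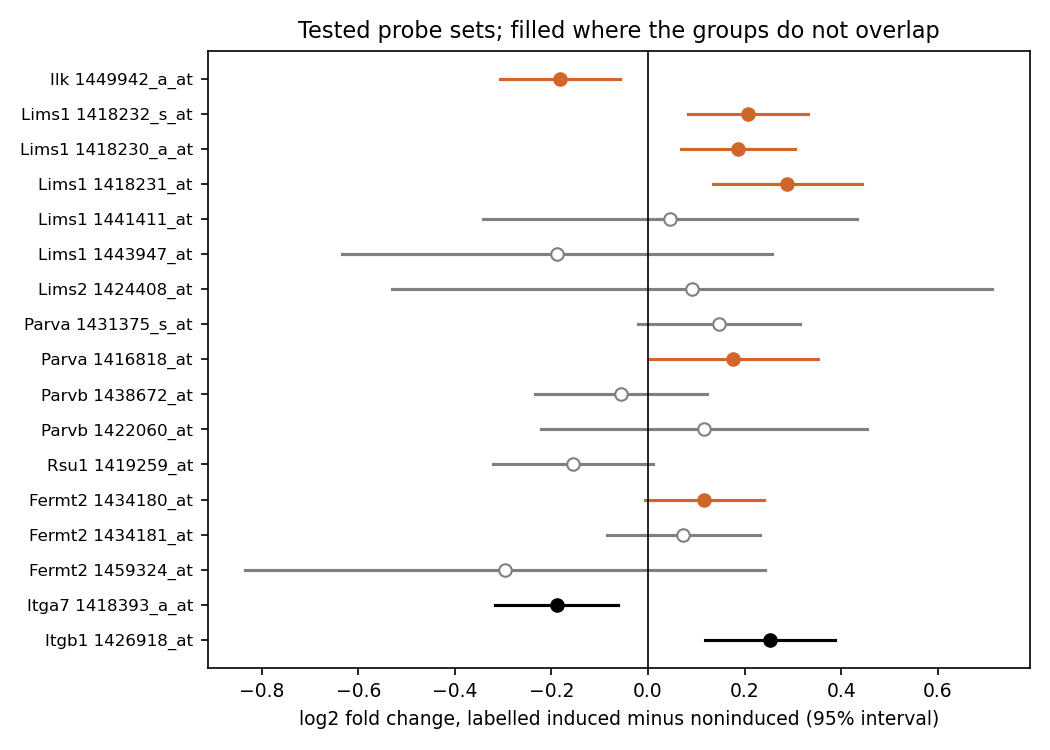
Log2 fold change of the arrays labelled induced over the noninduced arrays (x axis) for each of the 15 tested member probe sets and, in black, Itga7 and the brightest Itgb1 probe set, with limma's 95% interval; filled symbols mark groups that do not overlap. The 10 bright member probe sets lie between -0.18 and 0.29, and the 5 dim ones have intervals 0.68 to 1.24 wide.

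The fluidics run could be checked only in part, because induced replicate 1 shared its run with all noninduced arrays while the other two had a separate run. For induced replicate 1 against its own run, the log2 fold change was -0.15 for Ilk, 0.25, 0.17 and 0.21 for Lims1 probe sets 1418232_s_at, 1418230_a_at and 1418231_at, 0.22 and 0.16 for Parva probe sets 1431375_s_at and 1416818_at, -0.20 for Rsu1 and 0.077 for Fermt2 probe set 1434180_at. Induced replicate 1 is also one of the arrays behind the values from all 6, so these are not separate evidence of direction. Fermt2 probe set 1434181_at was at -0.028 there. With 1 array in an arm the spread comes from the noninduced arrays alone, and induced replicate 1 is assumed to vary like them. Scanning began with the noninduced arrays, and order of scanning and tetracycline therefore cannot be told apart.

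Around the complex, 49 genes of its known surroundings were listed: both paralogues outside the members, 28 direct partners, and 19 kinases and substrates placed downstream of ILK. Each was represented by its brightest probe set, 48 had one and 43 passed the filter. None of the 43 passed an adjusted p of 0.05 in limma, and 7 had an unadjusted p under 0.05, of which 4 were positive and 3 negative; the unmoderated comparison gave 0 and 6. After median centring the 7 became 13, and 2 genes passed the adjusted threshold. Over all tested probe sets the share at an unadjusted p under 0.05 was 14.7%, and 18.9% among those with a mean signal over 100. The groups did not overlap in 8 of 43. That share was 20.3% over all tested probe sets and 24.4% among those with a mean signal over 100. The median log2 fold change was -0.011, against -0.010 for all tested probe sets. The paralogues Fermt3, a kindlin of blood cells, and Parvg, a parvin of blood cells, lay below the filter with 12.5 to 32.8 and 1.58 to 27.4 over all arrays.

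Of the 25 direct partners tested, 10 had a positive and 15 a negative log2 fold change. Itgb1, the beta1 subunit whose tail binds kindlin and talin, gave 1137, 1190 and 1288 with its brightest probe set and then 1375, 1528 and 1411. The groups did not overlap (log2 fold change 0.25, SE 0.062, limma adjusted p = 0.113; 0.19 for induced replicate 1 against its own run). With arrays centred on their medians it passed at 0.35 (limma adjusted p = 0.0418). Its second bright probe set, 1452545_a_at, was at 0.069 (limma adjusted p = 0.662; -0.042 for induced replicate 1 against its own run). A dimmer one, 1427771_x_at, was at 0.32 without overlap (limma adjusted p = 0.284). Itgb3, the beta3 subunit, was at 0.39 with probe set 1455257_at, where induced replicate 3 alone reached 156 against 79.3 to 110.4 on the other 5 arrays (limma adjusted p = 0.290). Its other tested probe set, 1421511_at, was at -0.35 without overlap (limma adjusted p = 0.234), so the array gives Itgb3 no single direction. Fblim1 encodes migfilin, which links kindlin-2 to filamin, and was at -0.32 with probe set 1449141_at, where the groups overlapped (limma adjusted p = 0.202). Probe set 1418569_at of the same gene was at 0.21 without overlap (limma adjusted p = 0.321). Tesk1, a kinase that alpha-parvin binds, was at -0.23 without overlap (limma adjusted p = 0.365).

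Of the 18 downstream genes tested, 9 were positive and 9 negative. Ppp1r12a, the myosin phosphatase targeting subunit, gave 889, 812 and 883 and then 1072, 1039 and 949, without overlap (0.24, SE 0.064, limma adjusted p = 0.133). Its other probe sets were at 0.17 without overlap (1437734_at) and at 0.20 (1453163_at) and 0.042 (1429487_at) with overlap. Akt2, a kinase reported downstream of ILK, gave 286, 292 and 288 and then 246, 245 and 249, also without overlap (-0.22, SE 0.073, limma adjusted p = 0.212). Its dimmer probe sets 1421324_a_at and 1455703_at were at -0.12 and -0.22, both with overlap. The remaining 16 downstream genes ranged from -0.12 to 0.17.

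**Figure D5:**
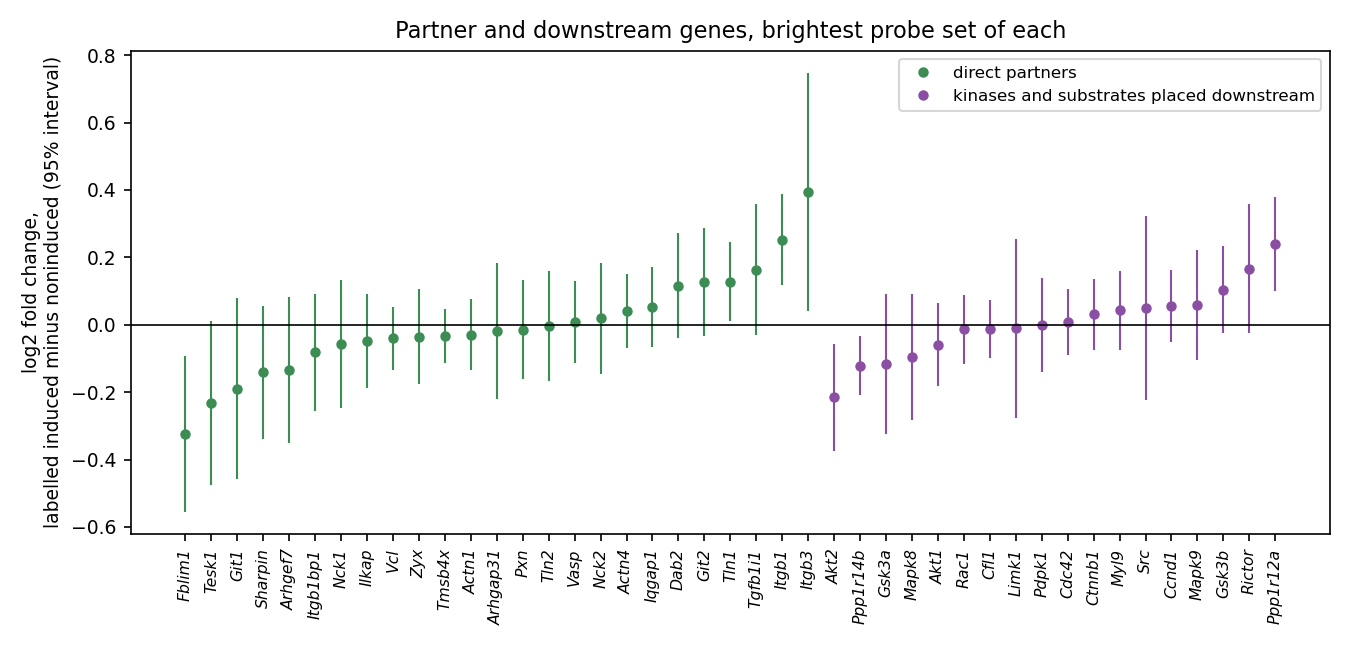
Log2 fold change with limma's 95% interval (y axis) for the 43 partner and downstream genes that passed the filter (x axis), each with its brightest probe set. The values range from -0.32 for Fblim1 to 0.39 for Itgb3, both of these genes have another probe set with the opposite sign, most intervals include 0, and none of the genes passed the adjusted threshold.

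The profiles of Ilk and Lims1 over the 6 arrays were also set against those of all other genes tested. With likeness measured as the root mean square distance between log2 profiles centred on their own means, the 5 genes nearest to Ilk were Dbr1 (distance 0.014), Gnpat (0.017), Ttc39b (0.019), Ski (0.020) and Calr (0.022). Those nearest to Lims1 (probe set 1418232_s_at) were Kif13a (0.024), Trim35 (0.024), Senp6 (0.027), Sars (0.029) and Klf3 (0.031). The nearest of each set had log2 fold changes of -0.17 and 0.19, and the points share their arrays and scaling. No other member of the complex and no gene of the partner list was among these 10. Members and list hold only 7 and 48 of the 18193 genes with a probe set. Only tested genes could appear, among them 43 of the list. The absence of members and list from 10 places therefore carries little weight.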

How the data were processed

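Signals came from 6 arrays of chip type Mouse430_2, per the file headers. The deposited values are linear intensity per probe set, which the authors made in GCOS (version 1.1.1, per the submitters' processing notes). Every array had the same mean, 150.0, once the top and bottom 2% were set aside, so values are relative to the whole array and a shift of most transcripts together would be hidden. The deposited instrument records (unit other) gave fluidics run and scan order.

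Of 45037 probe sets that are not controls, 34945 had 1 gene in the platform annotation, 932 several and 9160 were not listed; 34741 matched the RefSeq table of GRCm38.p6 and 0 symbols changed. Values were taken to log2(value + 16), which understates changes of dim ones. Those averaging over 23.4, the median of all means, were tested in limma 3.58.1 under R 4.3.3 (lmFit; eBayes, trend on; adjustment by Benjamini-Hochberg over 22518, threshold 0.05), on groups taken from the titles. The series calls the 3 samples of a condition biological. Limma's p-values rest on the spread between them, moderated by the spread of all tested probe sets. Precision is limited by the number of arrays. Within-array differences had exact two-sided permutation tests. The fit was also run on simulated data with independent noise, no run effect and planted changes larger than those of any member. That run does not test the fit for changes of the members' size.

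All members, Itga7, Itgb1, the 6 listed partners with the largest change, the paralogues and the 5 nearest profiles of Ilk and Lims1 are named. Members and lists were chosen with earlier results of these data known. Alternatives were quantile normalization, median centring, other filters, a pseudocount of 1 or 64, robust moderation, moderation without the trend, weighting of arrays, replicate number or fluidics run as a block, the first run alone, an unmoderated comparison, leaving out each array and, added after seeing the data, 1 probe set per gene.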

Additional observations from a re-analysis of the deposited data

How the results depend on the processing

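Of the members' probe sets 0 passed the adjusted threshold under each alternative except median centring, which gave 2, both of Lims1. The 5 with an unadjusted p under 0.05 became 1 when the run was a block, 1 in the first run alone, and 4 to 7 without any 1 array. The members' median was 0.18 after median centring and 0.039 (without induced replicate 2) to 0.15 (without noninduced replicate 3) when 1 array was left out; that of the partner list was 0.082 after median centring and -0.028 to 0.0070 without any 1 array. Of single probe sets, the sign turned for Parvb 1438672_at (0.037 after median centring, -0.11 to 0.0069 without any 1 array), Fermt2 1434181_at (-0.028) and Fermt2 1459324_at (0.10) in both fits that rest on induced replicate 1, Lims2 (-0.12 to 0.41 without any 1 array) and Lims1 1441411_at (-0.053 to 0.11); none of these passed the test in any setting. Without any 1 array Parva 1431375_s_at ran from 0.082 to 0.21 and Rsu1 1419259_at from -0.23 to -0.098.

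The 45 calls over all tested probe sets became 306 after median centring, 102 with a filter at the 75th percentile, 86 with array weights, 74 with robust moderation, 2 unmoderated and 1 with no filter. They were 0 without a variance trend (2817 at an unadjusted p under 0.05), 0 when the run was a block (1923) and 0 in the first run alone (1976), all in limma. Leaving out 1 array gave 0 to 50: 0 without induced replicate 1 (2597 at an unadjusted p under 0.05), 1 and 8 without noninduced replicates 2 and 3, and 11 without induced replicate 2. With the replicate number as a block there were 5 calls; samples sharing a number did not deviate together (correlations of 0.012, -0.063 and -0.009 for numbers 1, 2 and 3), so the numbers were not used as pairs. The block changed no member's call. Signals under 100 limit 5 of the 15 tested probe sets.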

Other observations

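In the RefSeq table of GRCm38.p6 the Ilk gene overlaps Rrp8 at one end and Taf10 at the other. Rrp8, a nucleolar methyltransferase gene, gave 235, 248 and 250.4 on noninduced arrays and 202.4, 226 and 228 on those labelled induced. Its groups did not overlap, and the log2 fold change was -0.15 (limma adjusted p = 0.432). Taf10, a gene of the general transcription factor TFIID, gave 1657, 1546 and 1535 and then 1372, 1487 and 1559 with its bright probe set, where induced replicate 3 lay among the noninduced arrays (-0.10, limma adjusted p = 0.452). Its dim probe set was at 0.23 (limma adjusted p = 0.628). Neither gene belongs to the lists; both were chosen by position after the data had been seen.

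The second probe sets of Itgb3 and Fblim1 were singled out after their values were seen. Itgb3 probe set 1421511_at gave 97.7, 96.9 and 90.3 on noninduced arrays and 74.6, 61.4 and 77.9 on those labelled induced. Fblim1 probe set 1418569_at gave 143, 155 and 139.7 and then 175, 175 and 163. Which transcripts each one measures was not tested.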
